A study of Mus musculus with 16 samples.

Results

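Eph receptors form the largest family of receptor tyrosine kinases, and their ligands, the ephrins, are themselves held on the surface of the neighbouring cell. EphA receptors mainly bind ephrin-A ligands, which are attached to the membrane by a lipid anchor, and EphB receptors mainly bind ephrin-B ligands, which span the membrane. Contact sends a signal into both cells, so that the balance of receptors and ephrins is known for setting adhesion, repulsion and boundaries between cells. Several Eph receptors, Epha2 among them, are known to be made by mouse embryonic stem cells.

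The transcripts of 10 of these genes were followed here among the 52636 genes of the deposited count table. They were the receptors Epha1, Epha2, Epha4, Ephb2, Ephb3 and Ephb4 and the ephrins Efna1, Efna4, Efnb1 and Efnb2, found by the gene symbols of their Ensembl identifiers. The genes were chosen from the family of 22 (14 receptors and 8 ephrins) with earlier results of these same libraries in view, and which values picked each gene was not recorded. Their changes and p-values over the whole table are therefore given as a description, and support nothing independently. The other 12 family genes are given further on.

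All 16 libraries came from CRAFR26, a mouse embryonic stem cell line that carries a c-RAF kinase construct switched on by 4-hydroxytamoxifen (4OHT), c-RAF being the kinase that starts the MEK and ERK cascade. Clones 4 and 8 of this line were each sampled with 2 replicates in every group, which gave 4 libraries a group. All cultures had grown in the medium 2i/LIF (the GSK3 inhibitor CHIR99021, the MEK inhibitor PD03 and the cytokine LIF), and had been given the FGF receptor inhibitor PD17 at 250 nM in place of PD03 for 48 h. The group 0h received nothing further, the groups 2h and 4h received 250 nM 4OHT for 2 h or 4 h, and the group rev received 4 h of 4OHT and then a MEK inhibitor for 2 h. All groups therefore carried the same construct, and the labels do not say whether the replicates of a clone were separate cultures, so p-values measure only the spread between these libraries, which may be technical. No culture received the vehicle alone and none was kept for the last 2 h without the MEK inhibitor, so the inhibitor and the further 2 h cannot be told apart in rev.

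The libraries held 2172651 to 12680303 counts, of which 42.0% to 80.4% lay in the 8 most abundant gene models. Between 584 and 4156 counts in a library belonged to the 10 genes. The library rev clone 8 replicate 2 stood apart, with the share of 80.4% and the lowest scaling factor (0.463), and 2h clone 4 replicate 2 was the shallowest. Without both, 4 genes were called at 2h and 6 at 4h relative to 0h, 3 between 2h and 4h, 6 between 4h and rev, and 0 between 0h and rev. Those at 4h, between 2h and 4h and from 4h to rev include Epha1, which then passed the filter through its high 4h libraries, so that its calls repeat that choice. Levels are CPM, the counts of a gene relative to the scaled total of its library, and a gene is said to be called, to rise or to fall where edgeR's quasi-likelihood test gave an adjusted p under 0.05 over the 12215 genes that passed the filter on low counts. All 8 stem cell markers checked, among them Pou5f1, Nanog and Esrrb, passed that filter and summed to 1594 to 2310 CPM in a library. Relative to their lowest values, the widest ranges over the libraries were those of Nanog (180 to 514 CPM), Klf4 (51.4 to 142) and Tdgf1 (48.9 to 144). The part of these markers in the changes below was not tested. The markers of primed epiblast and mesoderm, of which 5 of 6 passed, summed to 11.5 to 14.1 CPM at 0h, 15.5 to 26.7 at 2h, 25.3 to 39.5 after 4h and 15.2 to 17.4 in rev, and the highest single value was that of T (16.8 CPM), while Fgf5 stayed at or below 0.438 CPM. Their part in the changes below was not tested, and in bulk RNA fewer cells with a transcript and less of it per cell cannot be told apart. Of the other lists, 2 of 8 primitive endoderm genes passed (summed level 33.2 to 70.1 CPM over the libraries, mostly Lama1), 2 of 4 trophoblast genes, 2 of 6 fibroblast genes (2.44 to 8.56), 3 of 4 neural genes (mostly Tubb3) and 0 of 2 blood genes (at most 0.22). The trophoblast genes summed to 0.804 to 4.89 CPM before induction, 1.92 to 5.69 after 2h, 2.63 to 12.6 after 4h and 4.31 to 12.05 in rev. The neural genes summed to 19.2 to 46.4 CPM before induction, 14.9 to 36.3 after 2h, 12.9 to 26.7 after 4h and 27.2 to 37.8 in rev, and the part of both lists in the changes below was not tested. Postn and Hbb-bs were at 0 in all 16 libraries.

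The promoters of 3 of the genes are shown, because among the 8 tested genes Epha2 rose most and Efnb1 fell most at 4h, and Ephb2, not called at 4h, was the other gene whose window held the letters marked here. Each run is the 250 bases before the RefSeq transcription start, 5′ to 3′ on the gene's strand, in GRCm38.p6, which is the build mm10 named in the submitters' processing notes. Capitals mark the letters GCGTGGG, the core recognised by EGR factors, or their reverse complement.
Epha2, chr4:141300971-141301220, plus strand: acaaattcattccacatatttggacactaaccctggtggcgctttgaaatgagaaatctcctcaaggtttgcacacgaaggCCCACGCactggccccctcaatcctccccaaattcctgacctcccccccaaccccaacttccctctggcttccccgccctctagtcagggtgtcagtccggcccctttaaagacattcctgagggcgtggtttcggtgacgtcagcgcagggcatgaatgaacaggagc
Ephb2, chr4:136836013-136836262, minus strand: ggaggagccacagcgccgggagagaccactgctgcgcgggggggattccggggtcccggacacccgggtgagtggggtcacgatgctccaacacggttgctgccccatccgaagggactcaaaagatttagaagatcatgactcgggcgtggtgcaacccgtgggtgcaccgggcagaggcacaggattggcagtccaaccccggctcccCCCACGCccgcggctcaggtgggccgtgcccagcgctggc
Efnb1, chrX:99135811-99136060, plus strand: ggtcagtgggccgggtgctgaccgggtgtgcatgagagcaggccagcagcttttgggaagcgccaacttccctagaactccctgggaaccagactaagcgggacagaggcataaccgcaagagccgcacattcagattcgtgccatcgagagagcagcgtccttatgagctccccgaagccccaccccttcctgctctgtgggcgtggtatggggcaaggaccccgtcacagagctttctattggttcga
The EGR letters lay on the strand opposite to the gene in both, 169 bases before the start of Epha2 and 40 bases before that of Ephb2. They were looked for on both strands of the 300 bases that run from 250 before to 50 after the start, together with the ETS letters CCGGAAG and the AP-1 letters TGANTCA, and the 3 motifs do not overlap each other in these windows. Of 32851 RefSeq promoters of that length, 5.04% held the EGR letters, 8.86% the ETS letters and 7.81% the AP-1 letters. All 10 genes had an entry, with 11 windows in all. The EGR letters stood in those of Epha2 and Ephb2, and the ETS and AP-1 letters in 0 of the 10. The GC content of the windows lay between 54.7% (Epha2) and 72.3% (Efnb2), all above the median of 52.7% over the table.

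Before induction the receptors Epha2, Ephb4 and Epha4 led. Per kilobase of exon, Epha2 stood at 13.1 ± 1.25 CPM per kb (SD, n = 4), Ephb4 at 12.1 ± 2.03 and Epha4 at 9.94 ± 0.54, and neighbours in this order overlapped. Ephb3 followed at 2.89 ± 0.276 CPM per kb, below all libraries of Epha4, and overlapped with Efna4, the most abundant of the 4 ephrins, at 2.51 ± 0.404. The remaining levels were 0.995 ± 0.293 CPM per kb for Efnb1, 0.722 ± 0.0739 for Ephb2, 0.537 ± 0.365 for Efna1, 0.368 ± 0.0502 for Efnb2 and 0.101 ± 0.0788 for Epha1. At 4h Epha2 stood alone at 49.3 ± 8.92 CPM per kb, and the receptor next to it, Ephb4, was at 8.33 ± 0.709. These levels, and the shares of the receptor sum further on, depend on the exon lengths of GENCODE M21. Without division by length the order at 0h was Epha4 (80.0 CPM), Epha2 (61.1) and Ephb4 (56.3).

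**Figure D1:**
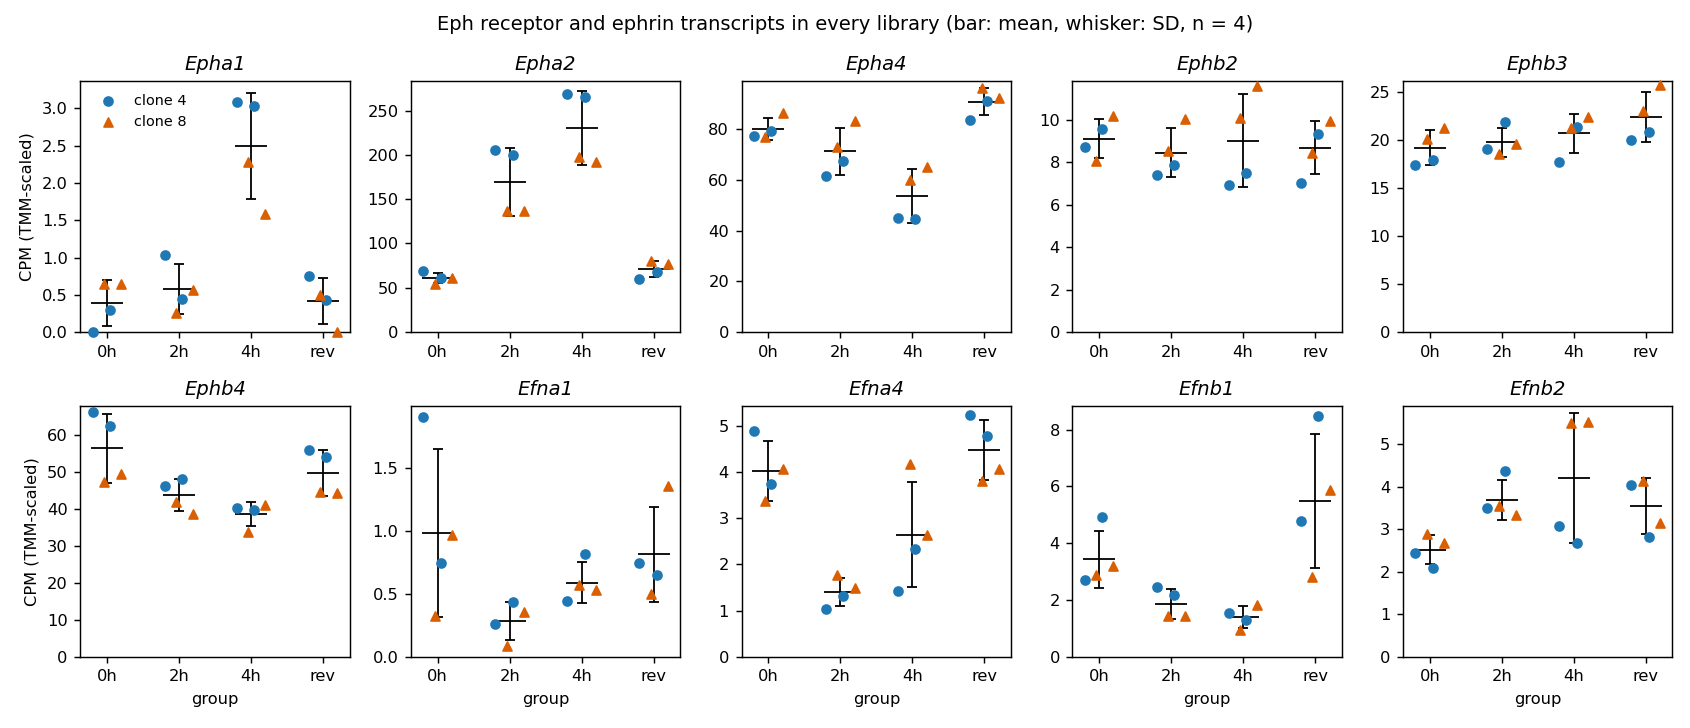
Level of each of the 10 transcripts in every library, in CPM of the TMM-scaled library size on axes that start at 0, for the groups 0h, 2h, 4h and rev. Circles are clone 4 and triangles clone 8, the bar is the group mean and the whisker the SD (n = 4); Epha2 rises from 54.2 to 68.4 CPM at 0h to 192 to 269 CPM at 4h, while Efnb1 falls and the groups of Ephb2 and of Ephb3 overlap.

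In 2h of c-RAF induction 1 of the 8 tested genes rose and 3 fell, and after 4h 2 rose and 3 fell. Over all tested genes 11.4% rose and 9.68% fell at 2h, and 17.2% rose and 16.8% fell at 4h. Of the genes called at 4h 50.6% rose, and 62.9% with library size alone. The median log2 fold change of the 8 genes was -0.14 at 2h and -0.31 at 4h, beside -0.02 over all genes in both comparisons. Since the genes were picked with these libraries in view, nothing is read from the gap between these shares. Both comparisons use the same 0h libraries.

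Epha2, on chromosome 4 (141301240 to 141329384, plus strand, mm10; ENSMUSG00000006445), codes for a receptor of ephrin-A ligands and showed the largest rise of the 8 tested genes at 4h. It was at 68.4, 61.3, 54.2 and 60.6 CPM at 0h, in the order clone 4 replicates 1 and 2 and clone 8 replicates 1 and 2 that is kept for all genes. It was at 206, 200, 136 and 136 CPM at 2h, at 269, 265, 198 and 192 CPM at 4h, and at 59.6, 67.5, 79.7 and 76.6 CPM in rev. Every induced library lay above every 0h and rev library, and clone 4 lay above clone 8 at 2h and 4h but below it in rev. The level rose 2.72-fold by 2h (log2 1.44 ± 0.11, SE, adjusted p = 1.82e-12) and 3.75-fold by 4h (log2 1.91 ± 0.11, adjusted p = 6.49e-16). From 2h to 4h it went up 1.38-fold (log2 0.46 ± 0.10, adjusted p = 0.00237), with overlapping groups that separated within each clone, and this step was not called when the clone term was left out (adjusted p = 0.129) or with library size alone (adjusted p = 0.483).

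Epha4 (chromosome 1, 77367185 to 77515088, minus strand; ENSMUSG00000026235) is a receptor that binds ligands of both classes, and it went the other way. It was at 77.4, 79.4, 77 and 86.4 CPM at 0h, at 61.4, 67.4, 72.9 and 83.2 CPM at 2h, at 45.0, 44.5, 60 and 65.3 CPM at 4h, and at 83.5, 91.0, 96.3 and 92.4 CPM in rev. The 2h libraries overlapped with those at 0h, and the 4h libraries lay below all 0h libraries and overlapped with those at 2h. The change at 2h was not called (log2 -0.17 ± 0.08, adjusted p = 0.125), and by 4h the level had fallen 1.52-fold (log2 -0.60 ± 0.08, adjusted p = 7.74e-07). The step from 2h to 4h was a fall as well (log2 -0.43 ± 0.08, adjusted p = 0.000819; 0.0709 without the clone term). With library size alone Epha4 was not called at 4h (log2 -0.49, adjusted p = 0.217) or between 2h and 4h (0.995), and without 0h clone 8 replicate 1 it was called at 2h (0.0486).

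Epha1 (chromosome 6, 42358487 to 42373268, minus strand; ENSMUSG00000029859), another ephrin-A receptor, did not pass the filter over all 16 libraries. Its counts were 0, 2, 4 and 6 at 0h, 8, 1, 3 and 8 at 2h, 28, 26, 12 and 6 at 4h, and those of rev were 7, 2, 3 and 0. As CPM the 4h libraries (3.08, 3.04, 2.28 and 1.58) lay above all others, the highest of which was 1.04. In a fit of 31361 genes with no filter, Epha1 rose at 4h (log2 2.38 ± 0.39 against 0h, adjusted p = 6.43e-08) and was lower in rev (log2 -2.28 ± 0.39 against 4h, adjusted p = 5.56e-07), values that depend on the prior count of so sparse a gene. It also passed when the filter asked for a mean level of 1 CPM or more, and passed the usual filter when any single library of 0h, 2h or rev, or 4h clone 8 replicate 2, was left out. It passed there through its high 4h libraries, so a call against 4h in those fits repeats that choice and supports nothing. Over all 16 libraries, 3 of 4h and 0 of the other groups reached the usual filter's level. That level is set on library totals before scaling, unlike the CPM given here. The exons of Epha1 share 236 bases with those of Zyx, the gene of the focal adhesion protein zyxin on the opposite strand. The level of Zyx was 3.27 CPM at 0h, 12.9 after 2h, 19.4 after 4h and 9.86 in rev. Strand was not stated for the counting, so the reads of both cannot be told apart there.

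Ephb4, the receptor of Efnb2 (chromosome 5, 137350109 to 137378669, plus strand; ENSMUSG00000029710), fell early. It was at 66.3, 62.4, 47.3 and 49.4 CPM at 0h, at 46.1, 48.2, 41.9 and 38.7 CPM at 2h, at 40.1, 39.6, 33.8 and 41.0 CPM at 4h, and at 56.0, 54.1, 44.6 and 44.2 CPM in rev. Clone 4 stood above clone 8 at 0h by more than the spread of its replicates, so that the groups 0h and 2h overlapped although both clones were lower at 2h. The fall was 1.28-fold at 2h (log2 -0.35 ± 0.08, adjusted p = 0.000984) and 1.46-fold at 4h (log2 -0.55 ± 0.08, adjusted p = 1.81e-06), and the step between them was not called (log2 -0.19 ± 0.08, adjusted p = 0.15; 0.0497 without 4h clone 8 replicate 2). Neither fall was called with library size alone (adjusted p = 0.672 at 2h and 0.313 at 4h). Its exons share 33 bases with Zan on the opposite strand, which was at 1.94 CPM at 0h and 0.749 at 4h, both small beside the level of Ephb4.

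Ephb3 and Ephb2, receptors of ephrin-B ligands, were not called in any of the 5 comparisons. Ephb3 (chromosome 16, 21204755 to 21223305, plus strand; ENSMUSG00000005958) ranged over 17.4 to 21.3 CPM at 0h, 18.5 to 21.9 at 2h, 17.7 to 22.4 at 4h and 19.9 to 25.7 in rev. Its log2 fold changes lay between -0.01 and 0.19. Ephb2 (chromosome 4, 136647539 to 136835988, minus strand; ENSMUSG00000028664) ranged over 8.04 to 10.2 CPM at 0h, 7.38 to 10.01 at 2h, 6.93 to 11.6 at 4h and 7.04 to 9.92 in rev. Its log2 fold changes lay between -0.11 and 0.04, with SEs of 0.14 to 0.16. For both genes all groups overlapped.

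Efna4 (chromosome 3, 89333390 to 89338028, minus strand; ENSMUSG00000028040), a ligand of EphA receptors, was lowest at 2h. Its level was 4.89, 3.73, 3.38 and 4.06 CPM at 0h, 1.04, 1.31, 1.77 and 1.49 at 2h, 1.43, 2.34, 4.18 and 2.63 at 4h, and 5.22, 4.78, 3.81 and 4.06 in rev. The 2h libraries lay below all of 0h and rev, and the 4h libraries overlapped with both groups, with clone 4 replicate 1 inside the range of 2h and clone 8 replicate 1 inside that of 0h. Efna4 fell 2.69-fold at 2h (log2 -1.43 ± 0.27, adjusted p = 0.000172) on 3 to 38 counts a library. At 4h the change was -0.65 ± 0.26 on the log2 scale, not called (adjusted p = 0.0502), and the difference between 4h and 2h was not called either (log2 0.78 ± 0.30, adjusted p = 0.112). Leaving out 0h clone 8 replicate 1, 2h clone 4 replicate 1 or 4h clone 8 replicate 1 gave a call for 4h relative to 0h (adjusted p = 0.038, 0.0476 and 0.00796, the last with log2 -0.97). A fit of the 2h and 4h libraries alone (adjusted p = 0.0287) or one without 4h clone 4 replicate 1 (0.0386) gave a call between those times. It shares 168 bases of exon with 4731419I09Rik on the opposite strand, which held 0 to 7 counts.

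Efna1 (chromosome 3, 89271733 to 89281142, minus strand; ENSMUSG00000027954), a well known ligand of Epha2, held 7, 5, 2 and 9 counts at 0h, 2, 1, 1 and 5 at 2h, 4, 7, 3 and 2 at 4h, and rev held 7, 3, 3 and 3. These lie near the floor of 3 counts, which was worth 0.213 to 1.35 CPM, and the groups overlapped. In the fit with no filter it was lower at 2h than at 0h (log2 -1.68 ± 0.53, adjusted p = 0.0254), and not called in the other comparisons. Efna1, Efna3 and Efna4 are neighbours on chromosome 3, on the same strand, with gaps of 32756 and 10424 bases.

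Efnb1 (chromosome X, 99136130 to 99148991, plus strand; ENSMUSG00000031217), a membrane-spanning ligand of EphB receptors, showed the largest fall of the tested genes at 4h. It was at 2.72, 4.92, 2.89 and 3.21 CPM at 0h, at 2.46, 2.19, 1.44 and 1.42 CPM at 2h, at 1.54, 1.29, 0.949 and 1.84 CPM at 4h, and at 4.80, 8.47, 2.82 and 5.86 CPM in rev. All 2h and 4h libraries lay below all 0h libraries, on 5 to 33 counts. The fall was 1.94-fold at 2h (log2 -0.96 ± 0.27, adjusted p = 0.0102) and 2.72-fold at 4h (log2 -1.45 ± 0.30, adjusted p = 0.000361). The call at 2h was lost with library size alone (adjusted p = 0.137), without the clone term (adjusted p = 0.0625) and without 0h clone 4 replicate 2 (adjusted p = 0.0501).

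Efnb2 (chromosome 8, 8617434 to 8661242, minus strand; ENSMUSG00000001300), the other ephrin-B ligand here, was higher at 4h. It was at 2.44, 2.09, 2.89 and 2.67 CPM at 0h, at 3.50, 4.38, 3.55 and 3.34 CPM at 2h, at 3.08, 2.69, 5.51 and 5.53 CPM at 4h, and at 4.05, 2.82, 4.14 and 3.16 CPM in rev. At 4h clone 8 stood far above its 0h libraries and clone 4 only just, and the groups overlapped. The 4h difference was called (log2 0.66 ± 0.24, adjusted p = 0.0309) and the 2h difference, where the groups did not overlap, was not (log2 0.44 ± 0.23, adjusted p = 0.176). The call was lost in DESeq2 (adjusted p = 0.0519), with no filter on low counts (0.0536), with library size alone (0.154) and without the clone term (0.0752), and also when any of 0h clone 4 replicate 2, 0h clone 8 replicate 2, 4h clone 8 replicate 1 or 4h clone 8 replicate 2 was left out (adjusted p = 0.0747, 0.0812, 0.144 and 0.0967).

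**Figure D2:**
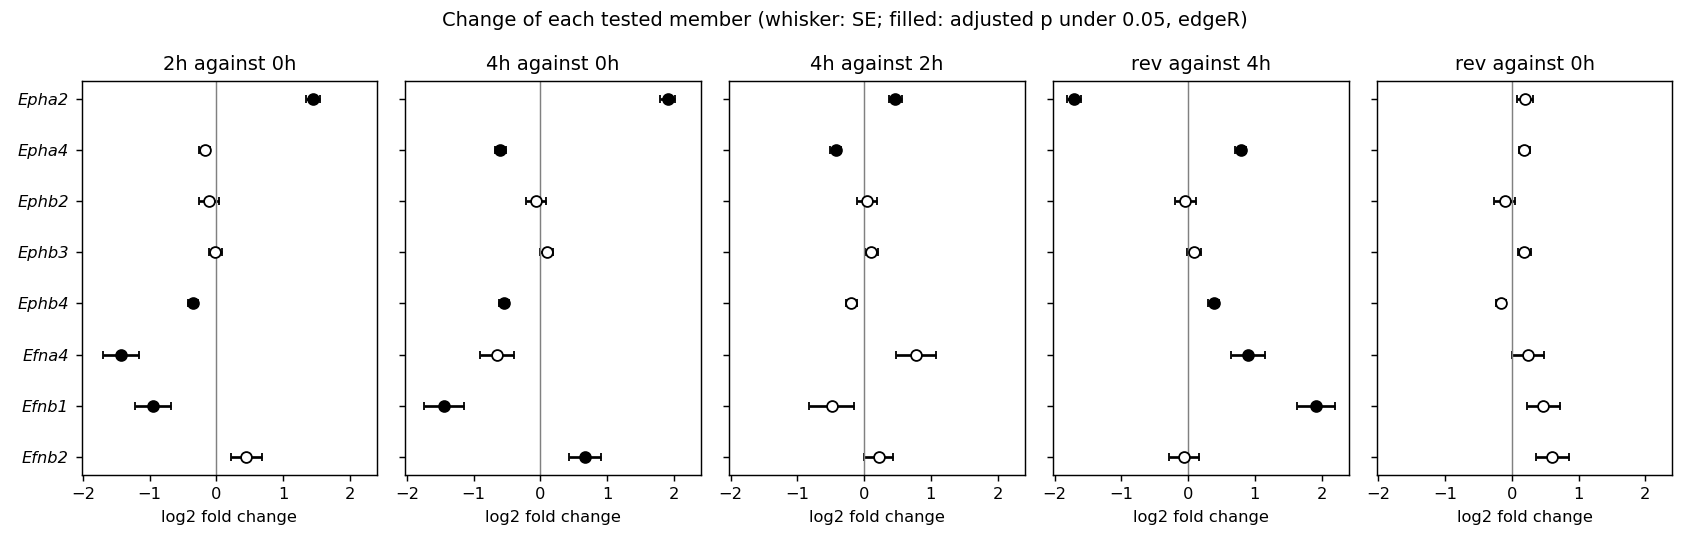
Log2 fold change of the 8 tested genes in each of the 5 comparisons, with SE whiskers; filled circles mark an adjusted p under 0.05 in edgeR over all 12215 genes. Epha2 lies at 1.91 in 4h against 0h and at -1.71 in rev against 4h, Epha4, Ephb4 (-0.06 in rev against 4h with library size alone) and Efnb1 lie on the opposite side in both, and no circle is filled in rev against 0h.

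Between 2h and 4h of induction Epha2 rose and Epha4 fell, 2 calls among the 8 genes, where 3.8% of all genes rose and 3.52% fell. Of the genes called in this step 51.9% rose, and 88% with library size alone (88 rose and 12 fell). The levels of the other 6 genes were not called in this step.

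After the MEK inhibitor Epha2 came down and 4 genes went up. Epha2 fell 3.27-fold from 4h to rev (log2 -1.71 ± 0.11, adjusted p = 4.16e-14). Efnb1 rose 3.77-fold (log2 1.92 ± 0.29, adjusted p = 1.02e-05), Efna4 1.86-fold (log2 0.89 ± 0.26, adjusted p = 0.0136), Epha4 1.73-fold (log2 0.79 ± 0.08, adjusted p = 1.44e-08) and Ephb4 1.30-fold (log2 0.38 ± 0.08, adjusted p = 0.00111; -0.06 with library size alone and adjusted p = 0.0624 without the clone term). All groups were apart except those of Efna4, which lost its call without 4h clone 4 replicate 1 or rev clone 4 replicate 1 (adjusted p = 0.128 and 0.125) and without the clone term (0.0641). By clone, the log2 change of Efna4 from 4h to rev was 1.43 ± 0.31 in clone 4 and 0.14 ± 0.37 in clone 8, and this difference was not called (-1.28 ± 0.48, unadjusted p = 0.0122, edgeR adjusted p = 0.808). Over all genes 7.93% rose and 8.43% fell. Efnb2, Ephb2 and Ephb3 were not called, with values for Efnb2 that overlapped (log2 -0.06 ± 0.23, adjusted p = 0.949). The comparison shares its 4h libraries with that of 4h against 0h, so opposite signs in both are not independent of each other.

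Scaled to library size alone, the median gene shifted by -0.41 on the log2 scale from 4h to rev. Over all genes 57 rose and 1671 fell, instead of 969 and 1030 with TMM factors. Of the called genes 3.3% rose, instead of 48.5%. With library size alone 2 of the 8 genes were called, Epha2 (log2 -2.15) and Efnb1 (log2 1.49). Relative to the shifted median, the values were -1.75 for Epha2, 1.90 for Efnb1, 0.88 for Efna4, 0.77 for Epha4 and 0.35 for Ephb4. With the share of the 8 most abundant models added as a covariate, after the data were seen, Efna4 lost its call (adjusted p = 0.117) and the other 4 genes were called.

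Against 0h, the rev libraries gave 0 calls among the 8 genes in edgeR and 0 in DESeq2, with 3 at an unadjusted p under 0.05, while 12.4% of all genes were higher and 9.86% lower. Scaling to library size alone turned that balance, with 105 genes higher and 905 lower (10.4% of the called genes higher instead of 55.8%). Epha2 was at 70.9 ± 9.12 CPM in rev and 61.1 ± 5.83 at 0h (log2 0.20 ± 0.12, adjusted p = 0.226; -0.14 with library size alone). Leaving out rev clone 4 replicate 1 gave a call (log2 0.34, adjusted p = 0.0316). The largest difference was that of Efnb2 (log2 0.61 ± 0.25, adjusted p = 0.0769), followed by Efnb1 (log2 0.47 ± 0.24, adjusted p = 0.167), and a p above the threshold does not show that the levels were equal. The values of Epha4, Ephb3 and Ephb4 lay between -0.16 and 0.19.

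The makeup of the receptor transcripts changed with them. Summed over all 14 Eph receptors, the level was 40.8 ± 2.93 CPM per kb (SD, n = 4) at 0h, 60.03 ± 8.25 at 2h and 70.7 ± 7.93 at 4h, and rev stood at 43.5 ± 1.63. The induced libraries all lay above those of 0h and rev. Epha2 made up 32.0 ± 0.93% of this sum at 0h, 59.9 ± 5.45% at 2h and 69.4 ± 4.99% at 4h, and 34.8 ± 3.24% of it in rev. Epha4 went from 24.5 ± 2.16% at 0h to 9.67 ± 2.91% at 4h and Ephb4 from 29.6 ± 3.13% to 11.8 ± 1.27%. All EphB receptors together went from 17.2 ± 1.98 to 12.9 ± 0.821 CPM per kb, and the 8 ephrins together from 9.64 ± 2.23 at 0h to 6.36 ± 0.715 at 2h, 6.85 ± 1.02 at 4h and 9.75 ± 0.723 in rev. The sum of the ephrins at 0h was widest in clone 4 replicate 1 (12.9 CPM per kb), and 4h clone 8 replicate 1 (7.96) lay inside the 0h range.

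**Figure D3:**
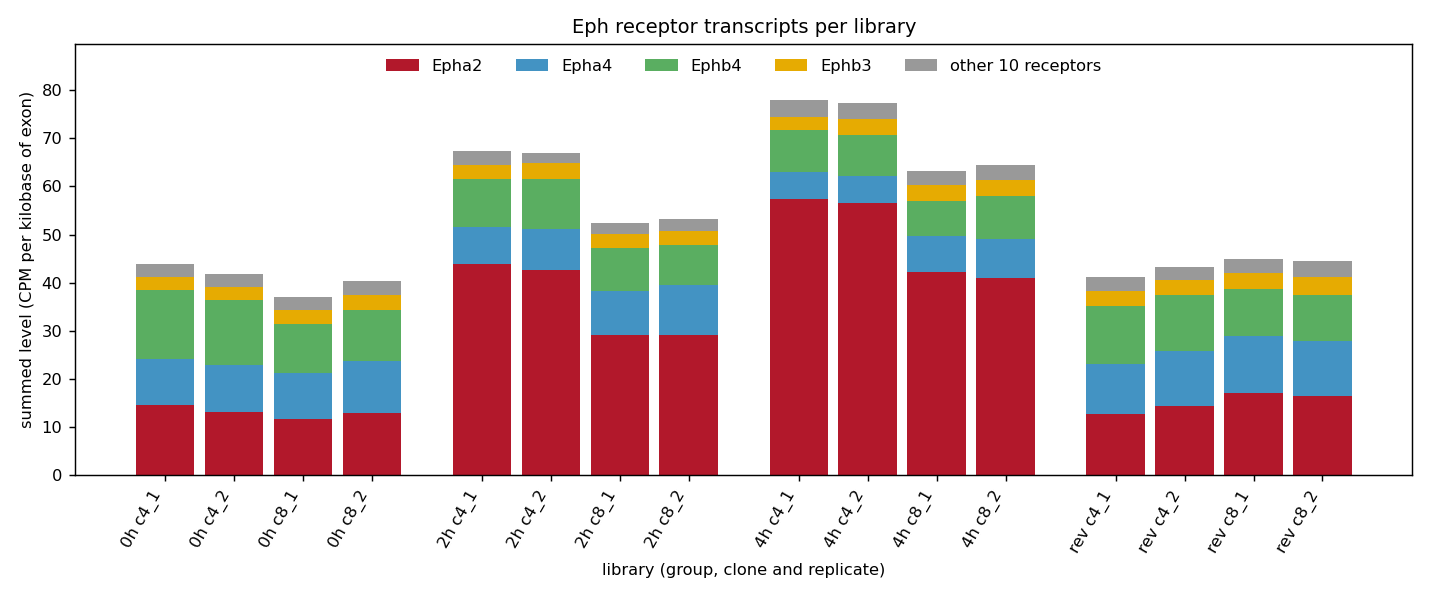
Summed level of the 14 Eph receptor transcripts in each of the 16 libraries, in CPM per kilobase of exon, stacked by gene (c4 and c8 are clones 4 and 8). Epha2 fills 31.4% to 33.3% of the bar at 0h and 63.6% to 73.8% at 4h, while the parts of Epha4 and Ephb4 shrink.

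Of the 12 family genes outside the 10, 7 passed the filter. Epha7, a receptor of ephrin-A ligands, rose as well, from 2.44, 2.39, 4.34 and 4.06 CPM at 0h to 7.25, 3.94, 7.10 and 5.89 at 2h and 10.9, 10.6, 9.49 and 8.95 at 4h, and was at 6.93, 6.30, 5.30 and 8.56 in rev. Its log2 fold change was 0.89 ± 0.20 at 2h (adjusted p = 0.00117), 1.56 ± 0.19 at 4h (adjusted p = 8.06e-08), 0.67 ± 0.16 between 2h and 4h (adjusted p = 0.00878) and -0.64 ± 0.17 from 4h to rev (adjusted p = 0.00946). It was also called in rev against 0h (log2 0.92 ± 0.22, adjusted p = 0.00206), with all rev libraries above all 0h libraries. The call from 4h to rev was lost without the clone term (adjusted p = 0.0612), with the share of the 8 most abundant models as a covariate (0.0822) and without rev clone 8 replicate 1 (0.0764). That between 2h and 4h was lost without the clone term as well (0.0801). With library size alone Epha7 was called neither at 2h (adjusted p = 0.0809), nor between 2h and 4h (0.186), nor in rev against 0h (0.16). Ephb6, a receptor without kinase activity, was at 5.16, 5.22, 3.54 and 3.85 CPM at 0h, 3.37, 3.07, 2.70 and 2.49 at 2h, 2.75, 2.22, 1.71 and 1.84 at 4h and 4.58, 3.48, 4.81 and 5.86 in rev. It was lower at 2h (log2 -0.60 ± 0.21, adjusted p = 0.0352) and at 4h (log2 -1.005 ± 0.23, adjusted p = 0.000891), and rose from 4h to rev (log2 1.03 ± 0.23, adjusted p = 0.00178). All 3 of these calls were lost with library size alone (adjusted p = 0.493, 0.0893 and 0.151). The 2h call was also lost with no filter (adjusted p = 0.105), without the clone term (0.074), in DESeq2 (0.0827), with the added covariate (0.0526), without both low libraries (0.0522) and without any of 6 single libraries (0.0532 to 0.107). Ephb1, Efna2, Efna3, Efna5 and Efnb3 were not called in any of these comparisons. Epha3, Epha5, Epha6 and Epha8 had at most 3 counts in any library and Epha10 at most 13.

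Downstream of the receptors, 55 of 62 listed adaptors, exchange factors, kinases, phosphatases and proteases of Eph and ephrin signalling passed the filter. The list was chosen with earlier results of these libraries known. At 4h 15 of them rose and 12 fell, which is 49.1% called beside 33.9% of all genes, with a median log2 fold change of 0.13 beside -0.02. At 2h 9 rose and 7 fell, 29.1% beside 21.1%. Scaled to library size alone, 5 of them were called at 4h and 1 at 2h. Calls over all genes dropped as well with that scaling. At 4h 554 of all genes rose and 327 fell, instead of 2098 and 2048. At 2h 204 rose and 134 fell, instead of 1390 and 1182. Without the clone term 20 of the list were called at 4h and 5 at 2h. Tns3, a tensin that ties integrins to actin, rose most at 4h (76.5 to 178 CPM, log2 1.22 ± 0.07, adjusted p = 5.09e-15), followed by Rac1, a GTPase of actin protrusion (log2 0.69 ± 0.08, adjusted p = 7.36e-08), and Slc9a3r1, a PDZ-domain scaffold of the cell cortex (log2 0.69 ± 0.08, adjusted p = 4.85e-08). Sh2d5, an adaptor with an SH2 domain, had the lowest fitted value (log2 -1.52 ± 0.38). It is among the 12 that fell at 4h and the 7 that fell at 2h, and so is part of both shares. It reached the filter's level of 1.54 CPM, set on library totals before scaling, in the 4 libraries of 0h and in 0 of the other groups. Its difference from 0h was therefore conditioned on and is given as a value. The largest falls after it were those of the exchange factors Arhgef16 (log2 -1.30 ± 0.34, adjusted p = 0.00299) and Arhgef15 (log2 -1.04 ± 0.25, adjusted p = 0.00168), both, like Sh2d5, with a mean under 4 CPM in every group. From 4h to rev 3 of the 55 rose and 4 fell, 12.7% beside 16.4% of all genes. The risers were Cldn4, a tight junction protein (log2 0.68 ± 0.12, adjusted p = 6.17e-05), the tyrosine kinase Abl1 (log2 0.53 ± 0.08, adjusted p = 2.62e-05) and Limk2, a kinase that acts on cofilin (log2 0.44 ± 0.10, adjusted p = 0.00153). The largest falls were those of the adaptor Nck1 (log2 -0.68 ± 0.16, adjusted p = 0.00234), of syntenin, Sdcbp (log2 -0.48 ± 0.12, adjusted p = 0.00427), and of Slc9a3r1 (log2 -0.42 ± 0.08, adjusted p = 0.000384). Between 2h and 4h 5 rose and 2 fell, 12.7% beside 7.32%, and in rev against 0h 10 were higher and 5 lower, 27.3% beside 22.3%. With library size alone 0 were called between 2h and 4h, where 88 of all genes rose and 12 fell. In rev relative to 0h 3 were called with that scaling, where 105 of all genes were higher and 905 lower. Without the clone term 2 and 7 of the list were called in these comparisons. For the fits without the clone term no count over all genes was made, so nothing is read from them.

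The 2 clones differed in the level of 4 of the 8 genes, in a table where 29.1% of all genes differed. Over the 4 groups Epha4 was higher in clone 8 (log2 0.23 ± 0.06, adjusted p = 0.00245), and Epha2 (log2 -0.26 ± 0.08, adjusted p = 0.00813), Ephb4 (log2 -0.27 ± 0.06, adjusted p = 0.000462) and Efnb1 (log2 -0.54 ± 0.20, adjusted p = 0.0391) were lower. These values average over groups that differed. In rev Epha2 was higher in clone 8 (79.7 and 76.6 CPM) than in clone 4 (59.6 and 67.5), and at 0h the clones overlapped for Epha4. The call of Efnb1 was lost in DESeq2 (adjusted p = 0.0744) and in 8 of the 16 fits that left out 1 library, with adjusted p up to 0.197. Ephb2 was called as well, higher in clone 8, without 0h clone 4 replicate 2 (adjusted p = 0.0391), 0h clone 8 replicate 1 (0.0277) or rev clone 4 replicate 2 (0.04). The value of Epha4 was -0.02 when libraries were scaled to their size alone.

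The responses of the 8 genes were also compared between the clones. In edgeR and in DESeq2 0 of the 8 were called at 2h and at 4h (in edgeR 1 and 3 at an unadjusted p under 0.05), where 0.0901% and 0.311% of all genes were. Epha4 fell by 0.81 ± 0.10 on the log2 scale in clone 4 and by 0.39 ± 0.10 in clone 8 at 4h, a difference of 0.42 ± 0.15 that did not pass the test (adjusted p = 0.213). From 4h to rev Epha2 was the single gene of the whole table called for a different response (0.00819% of 12215). It fell by 2.08 ± 0.10 on the log2 scale in clone 4, from 269 and 265 CPM to 59.6 and 67.5, and by 1.31 ± 0.10 in clone 8, from 198 and 192 to 79.7 and 76.6. The difference was 0.77 ± 0.14 (adjusted p = 0.0439). The call was kept in DESeq2 (adjusted p = 0.00614) and in 5 of the 16 fits with 1 library left out, namely any of the 0h libraries or 4h clone 4 replicate 2, and lost in the others (adjusted p up to 0.732), among which the difference lay between 0.67 and 0.85. It was also lost with scaling to library size alone (difference 0.61, adjusted p = 1). The share of the 8 most abundant models was 42.0% and 51.7% in clone 4 and 60.4% and 62.4% in clone 8 at 4h, and 55.1% and 62.2% against 65.9% and 80.4% in rev, and its part in this difference was not tested.

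**Figure D4:**
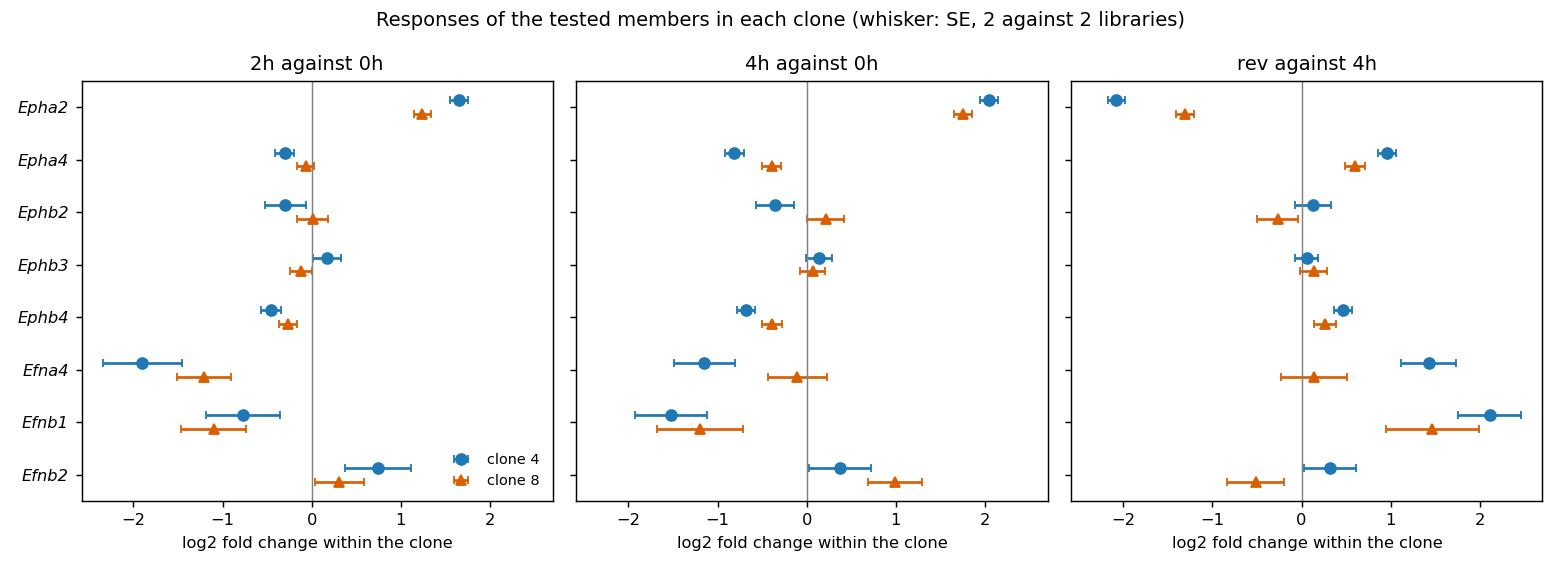
Log2 fold change of the 8 tested genes within clone 4 (circles) and within clone 8 (triangles), 2 against 2 libraries each, with SE whiskers, for 3 comparisons. The widest gap relative to its error is that of Epha2 in rev against 4h, -2.08 in clone 4 and -1.31 in clone 8.

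Finally, the genes whose pattern over the 16 libraries was most like that of Epha2 or Efnb1, which rose and fell most at 4h among the 8 tested genes, were listed, by Pearson's r of log2 CPM after each clone's mean was taken out, among 8641 genes with a mean of at least 5 CPM. These values describe libraries that share clones, groups and depth. The closest to Epha2 were Errfi1, an inhibitor of the EGF receptor (r = 0.969), Cdc42ep4, an effector of Cdc42 (r = 0.966), Enc1 (r = 0.964), Dusp6, the ERK phosphatase (r = 0.962), and Zfp36l2, an RNA-binding protein (r = 0.961). Dusp6 was at 1.25 CPM before induction, 55.2 at 4h and 1.59 in rev, a far wider range than that of Epha2. The closest to Efnb1 were S1pr1, a receptor of sphingosine-1-phosphate (r = 0.908), Ttl, the tubulin tyrosine ligase (r = 0.891), Vmac (r = 0.889), Nynrin (r = 0.883) and St6galnac6, a sialyltransferase (r = 0.882). Efnb1 itself had a mean of 3.05 CPM on 5 to 45 counts a library. That is under the level asked of the listed genes, so counting error weighs more on these r values. S1pr1 was at 6.43 CPM at 0h, 1.94 at 4h and 8.55 in rev.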

How the data were processed

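RNA-seq after removal of ribosomal RNA covered 16 libraries of CRAFR26 cells in 4 groups of 4, from 2 clones. The authors deposited unnormalized counts of reads for each gene, as the whole numbers and unequal totals of the deposited table show; the submitters' processing notes list bcl2fastq 2.19.1, STAR 2.5.3a and mm10, and the counting tool, annotation and strand setting are not given in the sources used here. Of the gene identifiers, 52489 matched GENCODE M21, which gave symbols, positions and exon lengths, and 147 did not. Counts were fitted in R 4.3.3 with edgeR 4.0.16 (quasi-likelihood test, filterByExpr over the groups, TMM factors of 0.463 to 1.47, group and clone as terms, two-sided, Benjamini-Hochberg over 12215 genes, threshold 0.05). The clones' responses were compared in a fit with a cell for each group and clone. SEs are the log2 fold change over the root of F. CPM uses the TMM-scaled library size, and CPM per kb divides it by the union of exons. Promoters came from RefSeq. The code was tested on simulated data. Depth, 2172651 to 12680303 counts, limits the low genes most, and the floor of 3 counts covers counting error only.

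The genes, the pathway and marker lists and the motifs were chosen with earlier results of these data known. All 10 genes and the 12 other family genes were named, and from the pathway list the 3 largest called changes in each direction at 4h against 0h and rev against 4h; the genes most alike were the 5 highest r for the tested genes with the largest rise and fall at 4h. Alternatives were RLE factors, library size alone, no filter, a mean of at least 1 CPM, no clone term, a replicate block, the compared groups alone, DESeq2 1.42.0, removal of the 8 most abundant models, a fold change threshold, and each library left out, with a further pair added after the data were seen (the shallowest and the lowest-factor library left out together, and the percentage of counts in the 8 models as a further term).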

Additional observations from a re-analysis of the deposited data

Results flagged for a closer look

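The response of Epha2 from 4h to rev differed between the clones by the test of that difference. Its log2 fold change was 0.77 higher in clone 8 than in clone 4 (SE 0.14, edgeR adjusted p = 0.0439), and all 4 rev libraries lay below all 4 libraries of 4h. The call was kept in 5 of the 16 fits that left out 1 library and lost in the others (adjusted p up to 0.732), and it was lost with library size alone (difference 0.61, adjusted p = 1). No other gene of the table passed this test. Among the 40 combinations of a member and a group, a library far from the other 3 was found in 0, where about 1 in 20 would be found by chance.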

How the results depend on the processing

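Of the 16 changes called among the tested genes, 15 kept their direction in up to 27 alternatives each, and 406 of 432 alternative values passed the threshold in that direction. The 6 called in every alternative were Epha2 at 2h, at 4h and in rev against 4h, Efna4 at 2h, and Efnb1 at 4h and in rev against 4h. With library size alone 2 genes were called at 2h, 2 at 4h, 0 between 2h and 4h and 2 between 4h and rev. Over all genes that scaling gave 204 higher and 134 lower at 2h, and 554 and 327 at 4h. It gave 88 and 12 between 2h and 4h, and 57 and 1671 from 4h to rev. A required log2 fold change of 1 or more gave 2, 2, 0 and 2 called genes among those tested. Without the clone term they numbered 0 between 2h and 4h, and 3 in rev against 4h. Leaving out 1 library gave 2 to 4 in 4h against 2h (4 without 4h clone 8 replicate 2), 0 to 1 in rev against 0h and 0 to 1 for the clone difference in rev, which library size alone put at 0. For the pathway list, library size alone gave 1 call at 2h, 5 at 4h, 3 in rev against 0h and 0 between 2h and 4h, no filter 10 at 2h and 9 in rev against 0h, no clone term 5 at 2h, 7 in rev against 0h and 2 between 2h and 4h, and leaving out 1 library 9 to 16 at 2h (9 without 0h clone 8 replicate 2), 9 to 16 in rev against 0h (9 without rev clone 4 replicate 1) and 4 to 7 in 4h against 2h (4 without 4h clone 4 replicate 2 or without any 2h library but clone 4 replicate 2). For the other family genes, library size alone gave 0 at 2h, 1 at 4h, 0 between 2h and 4h, 1 in rev against 4h and 0 between rev and 0h; no filter gave 1 at 2h and 2 in 4h against 2h, no clone term 1 at 2h, 0 between 2h and 4h, and 1 in rev against 4h, DESeq2 1 at 2h, and leaving out 1 library 1 to 3 at 2h (1 without any of 6 libraries, through Ephb6), 1 to 2 between 2h and 4h (2 without rev clone 8 replicate 1) and 1 to 2 in rev against 4h (1 without the same library). Signs changed with library size alone for rev against 0h in Epha2 (-0.14), Epha4 (-0.13), Ephb3 (-0.13), Efna4 (-0.062) and Ephb6 (-0.23), for rev against 4h in Ephb3 (-0.33) and Ephb4 (-0.056), for 4h against 0h in Ephb2 (0.049), for 2h against 0h in Ephb3 (0.018), and for clone 8 against clone 4 in Epha4 (-0.021), Ephb3 (-0.12) and Efna4 (-0.12). The 2h value of Ephb3 also turned with no filter (0.022), no clone term (0.011), the replicate block (0.0019) and the added covariate (0.0035), that of Ephb2 at 4h with the covariate (0.011), and that of Ephb6 in rev against 0h with the covariate (-0.000363) and without both low libraries (-0.064). Leaving out 1 library spanned 0 for Ephb2 (4h against 0h -0.16 to 0.026, 4h against 2h -0.044 to 0.12, rev against 4h -0.13 to 0.034), Ephb3 at 2h (-0.050 to 0.040), Efnb2 in rev against 4h (-0.25 to 0.072), Ephb6 in rev against 0h (-0.083 to 0.15) and Efna4 between clones (-0.031 to 0.24). With library size alone the median gene shifted, on the log2 scale, by -0.01 at 2h and 0.09 at 4h relative to 0h, by 0.10 between 2h and 4h, and in rev by -0.41 relative to 4h and -0.32 relative to 0h. The cause of the sign changes was not tested. The deviations of same-numbered libraries were correlated in 12 pairs over 8646 genes (mean r 0.0047, 2 over 0.1). The r lay between -0.22 and 0.060 in clone 4 and between -0.055 and 0.13 in clone 8. With 2 libraries per clone and group this cannot show whether the replicate numbers mark a shared culture or batch. With these numbers as a replicate block the called genes numbered 4, 5, 2, 5 and 0 in the 5 comparisons, as without it. Depth limits Epha1 and Efna1, with at most 28 and 9 counts.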
